A study of Mus musculus with 9 samples.

Results

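Myeloid cells such as macrophages, microglia, monocytes and neutrophils are made and kept alive by colony-stimulating factors, which act on receptors at the cell surface. Csf1r is the receptor of the ligands Csf1 and Il34, and the microglia of the retina and brain depend on it. Csf2ra and Csf2rb are the binding and the signalling chain of the granulocyte-macrophage factor receptor, and Csf3r is the receptor of the granulocyte factor. Spi1 (PU.1), Cebpa and Runx1 are transcription factors that set up the myeloid lineage, and PU.1 and C/EBP factors act on the genes of these receptors. The genes described here are these 9: Csf1r, Csf1, Il34, Csf2ra, Csf2rb, Csf3r, Spi1, Runx1 and Cebpa. They were taken by name from a table of 15228 genes, and 8 of the 9 were found. Il34 was not analysed here.

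The table came from wild-type mice and held 9 libraries of messenger RNA, 3 in each of 3 groups. Ctrl libraries came from normal retinas with no injury. ONC libraries came from retinas on day 3 after optic nerve crush with PBS as vehicle. TPEN libraries came from retinas on day 3 after crush with TPEN, a zinc chelator. Vehicle and TPEN were injected into the eye right after the crush. No injection is described for Ctrl, so that crush and injection cannot be told apart in comparisons with Ctrl. The cells were sorted by flow cytometry from whole dissociated retinas as cells positive for CD90.2 (Thy1) and negative for CD48, an antigen of most leukocytes, CD15, an antigen of granulocytes, and CD57, and are labelled as primary retinal ganglion cells (RGCs). The sources used here do not say whether libraries of the same group are different mice, so that p-values measure only the spread between these libraries, which may be technical.

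Levels are in RPKM, reads scaled by the exon length of the gene and by the size of the library, which allows comparison between genes. Library totals recovered from the table were 20077226 to 23109754 reads in Ctrl, 22967138 to 22986065 in ONC and 19946993 to 22217283 in TPEN, so that 3 reads, taken as the floor of detection, stood for 0.130 to 0.150 RPM (reads scaled by library size alone). The RGC markers ranged widely in level, with a sum over the 11 found of 369 to 378 RPKM in Ctrl, 393 to 415 in ONC and 308 to 321 in TPEN. Nefl, a neurofilament that other neurons also make, was at a mean of 258 RPKM in Ctrl, 265 in ONC and 198 in TPEN. The lowest were Rbpms at 0.605, 0.393 and 0.319 RPKM, Pou4f1 at 0.571, 0.183 and 0.241, and Slc17a6 at 0.268, 0.435 and 0.438. Between these and Nefl lay Nefm at 49.5, 60.2 and 44.8 RPKM, Nefh at 31.1, 24.6 and 22.5, and Sncg at 19.9, 23.3 and 18.4. Gap43 was at 7.79, 24.0 and 19.6 RPKM, and Thy1, used in the sort, at 4.74, 5.35 and 7.12. Isl1 was at 2.09, 1.64 and 1.76 RPKM and Stmn2 at 0.686, 1.23 and 0.984. The summed level of 6 rod photoreceptor markers was 18349 to 19201 RPKM in Ctrl, 16075 to 16304 in ONC and 17291 to 17414 in TPEN, far above that of the RGC markers. The libraries therefore held RNA of cell types other than RGCs. Microglia and macrophage markers were detected although the gate left out cells with CD48 on their surface: the summed level of the 19 of 20 that were found was 13.8 to 15.2 RPKM in Ctrl, 110 to 114 in ONC and 65.2 to 68.5 in TPEN. None of the 19 had a group mean of 0, the lowest being Adgre1 in Ctrl at 0.0515 RPKM. None of 11 neutrophil markers and none of 7 T cell markers was among the genes analysed here. In bulk RNA of this kind, fewer cells of a type and less RNA per cell cannot be told apart, and the part of the number of macrophages in the values below was not tested.

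All 8 genes were higher in every ONC library than in any Ctrl library, which held for 21.3% of all genes. Of the 8, 6 were lower in every TPEN library than in any ONC library, which held for 15.6% of all genes. All 8 were higher in every TPEN library than in any Ctrl library, which held for 19.0%. For Csf3r and Runx1 the latter rested on library size, as the lowest TPEN library had only as many reads as the highest Ctrl library. Receptors are described first, then the ligand and the transcription factors. A gene is called higher or lower where limma on log2(RPKM + 0.1) across all genes gave a change of 1.5-fold or more with an adjusted p below 0.05. Csf1r, Csf3r, Csf2ra and Cebpa averaged 0.5 RPKM or more across libraries and were tested among the 13566 genes that did. Csf1, Csf2rb, Spi1 and Runx1 were below it, and their values come from the same fit to all 15228 genes. All fold changes below are on the log2(RPKM + 0.1) scale, which understates the change of low genes.

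Csf1r, the receptor on which microglia depend, had the highest level of the genes that were called. It lies at chr18:61105572-61132149 on the plus strand of GRCm38, the build of the table. Its level was 0.776, 0.930 and 0.724 RPKM in the Ctrl libraries, 5.90, 5.72 and 5.94 in the ONC libraries, and 3.01, 3.12 and 3.61 in the TPEN libraries. The groups stood apart with no overlap, and each TPEN library lay between the other two groups. Csf1r rose in ONC/Ctrl by a log2 fold change of 2.72 (SE 0.11, adjusted p = 1.43e-07). It fell in TPEN/ONC, with a log2 fold change of -0.83 (SE 0.11, adjusted p = 0.00174). It remained above Ctrl with TPEN (log2 fold change 1.88, adjusted p = 3.75e-06).

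Exons of Csf1r overlap exons of Hmgxb3 on the other strand, and whether the counting used strand was not stated. The level of Hmgxb3 was 4.56 ± 0.394 RPKM in Ctrl, 4.94 ± 0.765 in ONC and 4.76 ± 0.0810 in TPEN (SD, n = 3), with a log2 fold change of 0.11 in ONC/Ctrl (adjusted p = 0.572).

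Csf3r, the receptor of the granulocyte factor, also rose, at a lower level. It lies at chr4:126024550-126044440 on the plus strand. RefSeq promoter sequences, which cover the 250 bases before a transcript's first base, were given for 5 of the 8 genes. The 141 bases of the Csf3r promoter that lie before the gene's first base in the table are shown, because Csf3r is one of the genes that rose with Spi1 and Cebpa, whose products act on such promoters (GRCm38.p6, chr4:126024409-126024549, plus strand):
Csf3r promoter: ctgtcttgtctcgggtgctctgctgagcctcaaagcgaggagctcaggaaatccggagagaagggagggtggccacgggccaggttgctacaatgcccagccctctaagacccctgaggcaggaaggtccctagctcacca
No base is in capitals, as none of the motifs searched for fell in these bases.

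The level of Csf3r was 0.223, 0.192 and 0.124 RPKM in Ctrl, 1.001, 0.989 and 1.13 in ONC, and 0.250, 0.511 and 0.319 in TPEN. In reads, these were 9 to 18 per Ctrl library, 82 to 94 per ONC library, and 18, 41 and 23 in TPEN. The lowest TPEN library lay just above the highest Ctrl library in RPKM, with 18 reads in both, and all were below ONC. Csf3r rose in ONC/Ctrl by a log2 fold change of 2.04 (SE 0.23, adjusted p = 2.27e-04) and fell in TPEN/ONC, with a log2 fold change of -1.35 (SE 0.23, adjusted p = 0.00829). The difference between TPEN and Ctrl did not pass (log2 fold change 0.70, SE 0.23, adjusted p = 0.0828), and under quantile normalization its sign turned (-0.021). Csf3r is best known from neutrophils, and no neutrophil marker of the list was among the genes analysed here.

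Csf2rb, the signalling chain that the receptors of the granulocyte-macrophage factor, interleukin 3 and interleukin 5 share, was almost absent from the Ctrl libraries of sorted cells. It lies at chr15:78325990-78351000 on the plus strand. Its level was 0.0187, 0.0182 and 0 RPKM in Ctrl (2, 2 and 0 reads), 0.511, 0.749 and 0.621 in ONC (56, 82 and 68 reads), and 0.126, 0.265 and 0.126 in TPEN (12, 28 and 12 reads). The groups did not overlap, and the Ctrl libraries were all under the floor of 3 reads. Set against that floor, the ONC mean was at least 21.7-fold higher and the TPEN mean at least 5.96-fold higher than Ctrl. Csf2rb rose in ONC/Ctrl (log2 fold change 2.69, SE 0.22, adjusted p = 2.30e-05) and fell in TPEN/ONC (log2 fold change -1.44, SE 0.22, adjusted p = 0.00459). The rise in TPEN/Ctrl (1.24, adjusted p = 0.00517) did not pass with a pseudocount of 1 RPKM (adjusted p = 0.0673) or quantile normalization (adjusted p = 0.0514). With a pseudocount of 1 RPKM the log2 fold change in TPEN/ONC was -0.47, under the fold of 1.5.

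Csf2rb2, a mouse-specific near-copy of Csf2rb that serves interleukin 3 alone, moved with it. Over 3108 aligned bases the 2 transcripts were 95.1% identical, so that the split of reads between them is uncertain. Csf2rb2 was at 0.0188 ± 0.0325 RPKM in Ctrl, 0.330 ± 0.0526 in ONC and 0.0401 ± 0.0417 in TPEN (SD, n = 3). It rose in ONC/Ctrl (log2 fold change 1.88, adjusted p = 5.92e-04) and fell in TPEN/ONC (-1.65, adjusted p = 0.00458). Its TPEN level was not distinguishable from Ctrl at this depth (0.23, SE 0.26, adjusted p = 0.619).

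Csf2ra, the ligand-binding chain, had the highest level of the 8 genes in every group and the smallest fold change in ONC/Ctrl. It lies at chr19:61224402-61228418 on the minus strand. Its level was 7.26, 7.86 and 7.30 RPKM in Ctrl, 10.49, 10.2 and 9.73 in ONC, and 9.93, 9.42 and 10.9 in TPEN. Every ONC and TPEN library was above every Ctrl library, and the ONC and TPEN libraries overlapped. The log2 fold change was 0.43 in ONC/Ctrl (SE 0.064, adjusted p = 0.00108) and 0.42 in TPEN/Ctrl (SE 0.064, adjusted p = 0.00183). Both passed the adjusted p but not the fold of 1.5, and the ratio of the ONC mean to the Ctrl mean was 1.36. In TPEN/ONC the log2 fold change was -0.01 (SE 0.064, adjusted p = 0.949).

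The transcripts of these chains therefore stood in a different proportion in each group. Whether they came from the same cells of this bulk RNA was not tested. Per 1000 RPKM of Csf2ra, Csf2rb was at 2.58, 2.31 and 0 RPKM in Ctrl, 48.7, 73.5 and 63.9 in ONC, and 12.7, 28.1 and 11.6 in TPEN. The log2 ratio within a library, with 0.1 RPKM added to each level, was 2.25 higher in ONC than in Ctrl and 1.43 lower in TPEN than in ONC (TPEN minus ONC -1.43). An exact permutation test over the 280 assignments to 3 groups gave p = 0.00357 (adjusted over 6 ratios, 0.0214). Each pair of groups gave an exact permutation p of 0.1, the lowest that 3 against 3 libraries can reach. This ratio was chosen after its values were seen. The level of Csf2ra exceeded that of Csf2rb in every library.

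**Figure D1:**
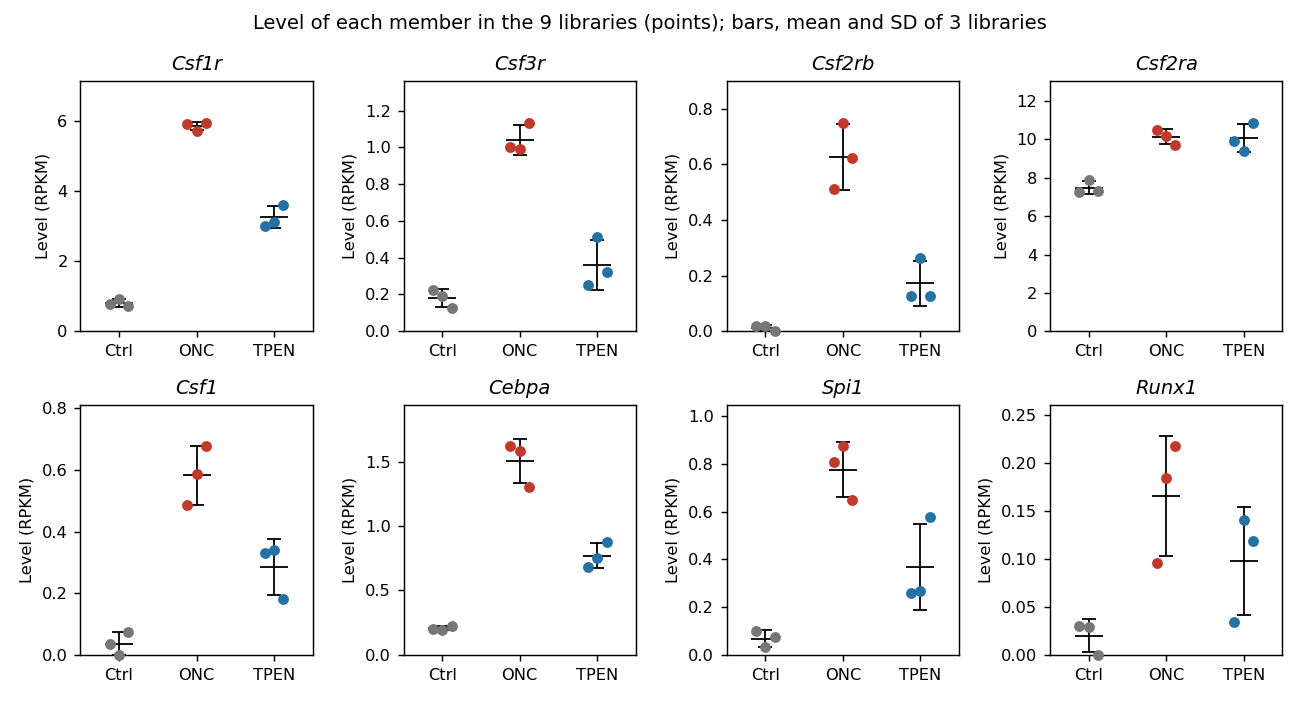
Level of each of the 8 genes in RPKM (vertical axes, linear from 0) in the 9 libraries (points), by group, with the mean and SD of 3 libraries (bars). ONC libraries sit above Ctrl libraries for all 8 genes, and TPEN libraries sit below ONC libraries for all but Csf2ra and Runx1, whose ranges overlap.

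Csf1, the ligand of Csf1r, is made by many cell types, neurons included. It lies at chr3:107741048-107760469 on the minus strand. Its promoter is shown because Csf1 is the one ligand measured here and rose together with its receptor (250 bases before the start, GRCm38.p6, chr3:107760470-107760719, minus strand, read toward the gene):
Csf1 promoter: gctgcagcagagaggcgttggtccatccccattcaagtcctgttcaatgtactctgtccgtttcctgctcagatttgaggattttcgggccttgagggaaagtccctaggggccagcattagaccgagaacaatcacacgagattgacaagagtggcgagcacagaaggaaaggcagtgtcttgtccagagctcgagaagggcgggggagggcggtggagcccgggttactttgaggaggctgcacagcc
No base is in capitals here either.

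The level of Csf1 was 0.0338, 0 and 0.0755 RPKM in Ctrl (4, 0 and 8 reads), 0.486, 0.585 and 0.676 in ONC (59, 71 and 82 reads), and 0.332, 0.341 and 0.180 in TPEN (35, 40 and 19 reads). The groups did not overlap, although 1 Ctrl library was at 0. Csf1 rose in ONC/Ctrl by a log2 fold change of 2.35 (SE 0.25, adjusted p = 1.35e-04) and in TPEN/Ctrl by 1.50 (adjusted p = 0.00361). In TPEN/ONC the log2 fold change was -0.85 (SE 0.25) and did not pass (adjusted p = 0.0762, with a range of 0.0219 to 0.217 over the alternatives). It was called with limma-voom on the recovered reads (log2 fold change -1.05, adjusted p = 0.0246). With a pseudocount of 1 RPKM it passed the adjusted p (0.0219) but not the fold (-0.30), and the fold of 1.5 was no longer met in TPEN/Ctrl (0.31). The level of Csf1 was below that of Csf1r in each of the 9 libraries.

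Cebpa (C/EBPα), a transcription factor of granulocyte and monocyte precursors, had the highest level of the transcription factors among the 8 genes. It lies at chr7:35119293-35121928 on the plus strand. Its promoter is shown as that of the transcription factor with the smallest adjusted p in ONC/Ctrl, with a TATA motif (TATAAA, first base 30 bases before the start) in capitals (GRCm38.p6, chr7:35119043-35119292, plus strand):
Cebpa promoter: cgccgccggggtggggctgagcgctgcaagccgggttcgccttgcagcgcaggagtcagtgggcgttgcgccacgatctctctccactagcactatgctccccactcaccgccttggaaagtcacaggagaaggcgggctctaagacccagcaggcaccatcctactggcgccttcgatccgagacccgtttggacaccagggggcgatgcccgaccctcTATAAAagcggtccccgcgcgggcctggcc

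The level of Cebpa was 0.203, 0.197 and 0.227 RPKM in Ctrl (12 reads in each library), 1.62, 1.59 and 1.305 in ONC, and 0.683, 0.751 and 0.875 in TPEN. The groups did not overlap, and TPEN lay between the others, as for Csf1r. Cebpa rose in ONC/Ctrl by a log2 fold change of 2.37 (SE 0.15, adjusted p = 3.86e-06) and fell in TPEN/ONC, with a log2 fold change of -0.88 (SE 0.15, adjusted p = 0.00696). With TPEN it was still above Ctrl (log2 fold change 1.49, adjusted p = 1.41e-04). With a pseudocount of 1 RPKM the changes in TPEN/ONC (-0.50) and TPEN/Ctrl (0.55) passed the adjusted p but were under the fold of 1.5.

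Spi1 encodes PU.1, the master transcription factor of macrophages and microglia. It lies at chr2:91082390-91115756 on the plus strand. Its level was 0.0993, 0.0321 and 0.0739 RPKM in Ctrl (6, 2 and 4 reads), 0.807, 0.872 and 0.646 in ONC (50, 54 and 40 reads), and 0.260, 0.267 and 0.577 in TPEN. TPEN replicate 3 was more than 0.3 RPKM above the other TPEN libraries and just below the lowest ONC library. Spi1 rose in ONC/Ctrl (log2 fold change 2.39, SE 0.27, adjusted p = 1.68e-04) and in TPEN/Ctrl (1.43, adjusted p = 0.00623). In TPEN/ONC the log2 fold change was -0.96 (SE 0.27) and did not pass (adjusted p = 0.0598, with a range of 0.0163 to 0.165 over the alternatives). It was called without TPEN replicate 3 (-1.26, adjusted p = 0.0163) and with limma-voom (-1.16, adjusted p = 0.0186). With a pseudocount of 1 RPKM it passed the adjusted p (0.0277) but not the fold (-0.38), and the fold of 1.5 was no longer met in TPEN/Ctrl (0.35).

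Runx1, a factor of the first blood cells and of microglial precursors, was the lowest of the 8 genes after the injury. It lies at chr16:92601466-92826149 on the minus strand. Its level was 0.0302, 0.0293 and 0 RPKM in Ctrl (8, 8 and 0 reads), 0.0956, 0.184 and 0.217 in ONC (26, 50 and 59 reads), and 0.0338, 0.141 and 0.119 in TPEN (8, 37 and 28 reads). Every ONC and TPEN library was above every Ctrl library in RPKM, while ONC and TPEN overlapped widely. TPEN replicate 1 had the same 8 reads as Ctrl replicates 1 and 2. Runx1 rose in ONC/Ctrl (log2 fold change 1.13, SE 0.27, adjusted p = 0.0155), a call that was lost without Ctrl replicate 3 (adjusted p = 0.0555), ONC replicate 2 (0.0546) or ONC replicate 3 (0.0600), and under quantile normalization (0.169), and with a pseudocount of 1 RPKM its fold was under 1.5 (log2 fold change 0.19). The log2 fold change was -0.44 in TPEN/ONC (SE 0.27, adjusted p = 0.388) and 0.69 in TPEN/Ctrl (SE 0.27, adjusted p = 0.132), the latter passing without TPEN replicate 1 (0.95, adjusted p = 0.0453) and with limma-voom (adjusted p = 0.0185). Cbfb, the protein partner through which Runx1 binds DNA, was at 6.10 RPKM in Ctrl, 5.67 in ONC and 5.56 in TPEN and was not called.

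Short core motifs were searched on both strands of the 250 bases before the start: GAGGAA for PU.1 (held by 23.3% of all 32851 promoters), TGTGGT for RUNX factors (14.0%), TTGCNNAA for C/EBP factors (9.56%) and TATAAA (12.4%). GAGGAA was found in Csf3r (first base 86 bases before the RefSeq start), in Csf2ra (14 and 8 bases before) and in 1 of the 2 starts of Runx1 (46 bases before, other strand). A match of so few letters is a description of the sequence and not a binding site.

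In ONC/Ctrl, 7 of the 8 genes were called higher in the fit to all genes, where 6.19% of the genes were called higher. Of the 4 tested above 0.5 RPKM, 3 were called higher against 4.58% of genes, but Csf3r and Cebpa passed that level through their ONC libraries, with Ctrl means of 0.180 ± 0.0503 and 0.209 ± 0.0157 RPKM (SD, n = 3), so that nothing is read from this count or from those of the 4 genes in the other comparisons. The ratio of the ONC mean to the Ctrl mean ran from 1.36 for Csf2ra over 5.80 for Csf3r, 7.19 for Cebpa, 7.23 for Csf1r, 8.36 for Runx1 and 11.3 for Spi1 to 16 for Csf1, with Csf2rb given as a bound above. The values of Csf1 and Runx1 rest on few Ctrl reads: the ratio of Csf1 was 34.5 without Ctrl replicate 3 and 10.7 without Ctrl replicate 2, and that of Runx1 was 5.57 without Ctrl replicate 3, so that the order of these genes is not fixed. The median log2 fold change of the 8 was 2.36, against 0.02 over all genes.

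In TPEN/ONC, 4 of the 8 genes were called lower in the fit to all genes, namely Csf1r, Csf3r, Csf2rb and Cebpa, where 1.85% of genes were called lower. Of the 4 above 0.5 RPKM, 3 were called lower against 1.21% of genes. In TPEN/Ctrl, 5 of the 8 genes were called higher against 4.50% of genes, and 2 of 4 above 0.5 RPKM against 3.45%. TPEN/ONC and ONC/Ctrl share the ONC libraries, and TPEN/Ctrl shares libraries with both.

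**Figure D2:**
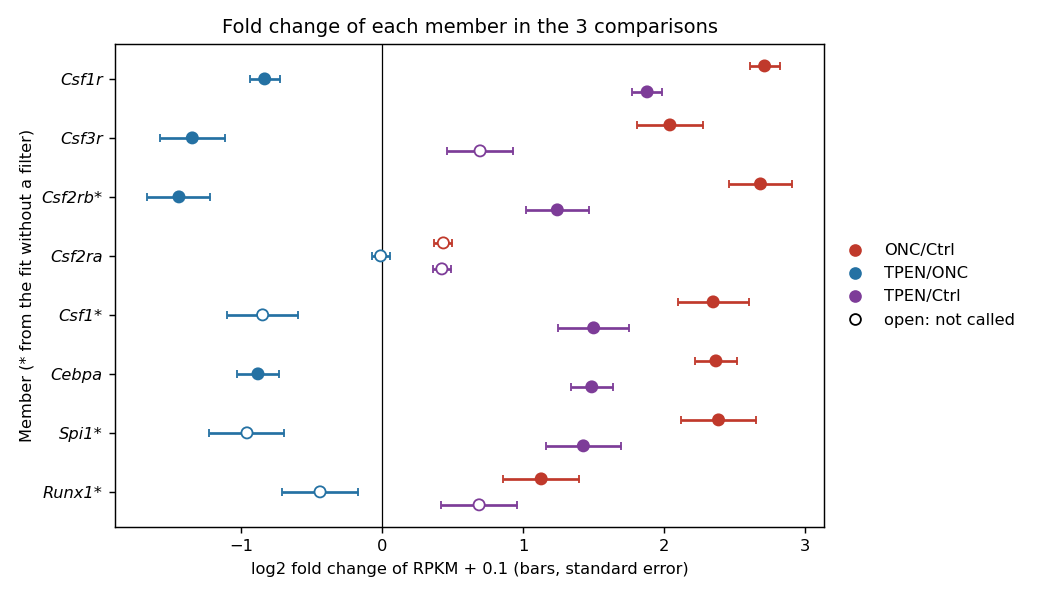
Log2 fold change of RPKM + 0.1 (horizontal axis) of each of the 8 genes in ONC/Ctrl, TPEN/ONC and TPEN/Ctrl, with bars for the standard error and open points for changes not called. ONC/Ctrl runs from 0.43 for Csf2ra to 2.72 for Csf1r, and TPEN/ONC from -1.44 for Csf2rb to -0.01 for Csf2ra.

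The share of the rise that was still there with TPEN, taken as the TPEN level minus the Ctrl mean over the ONC mean minus the Ctrl mean, differed in size between genes. It was 21.0% ± 15.7 for Csf3r and 26% ± 13 for Csf2rb (SD over 3 TPEN libraries). It was 42.4% ± 25.6 for Spi1, 43.4% ± 7.50 for Cebpa, 45.4% ± 16.5 for Csf1, 48.4% ± 6.34 for Csf1r and 53.5% ± 38.7 for Runx1. For Csf2ra, whose ONC level was 1.36 times that of Ctrl, it was 97.6% ± 27.7. Without TPEN replicate 3 the share of Spi1 was 27.6%, and without TPEN replicate 2 that of Csf3r was 12.2%. The receptors Csf3r and Csf2rb had the lowest shares with all libraries, but the spreads of neighbours in this order overlap and the differences in share were not tested.

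Per length, the order of levels in ONC was Csf2ra (10.1 ± 0.388 RPKM), Csf1r (5.85 ± 0.117), Cebpa (1.50 ± 0.172), Csf3r (1.04 ± 0.0805), Spi1 (0.775 ± 0.116), Csf2rb (0.627 ± 0.119), Csf1 (0.582 ± 0.0950) and Runx1 (0.166 ± 0.0628; SD, n = 3). Spi1, Csf2rb and Csf1 did not differ beyond their spread, while the libraries of the other neighbours did not overlap. In TPEN the first 3 genes kept this order at 10.1 ± 0.736, 3.25 ± 0.320 and 0.770 ± 0.0971 RPKM. Spi1 (0.368 ± 0.181), Csf3r (0.36 ± 0.136), Csf1 (0.284 ± 0.0901), Csf2rb (0.172 ± 0.0799) and Runx1 (0.0978 ± 0.0565) followed, each overlapping with the next. Csf3r therefore stood clear of Spi1 in ONC and level with it in TPEN.

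Because macrophage markers rose as well, Csf1r, Spi1 and Runx1 were set against the summed level of the 19 markers in the same library. All 16 markers tested were called higher in ONC/Ctrl and in TPEN/Ctrl, and 6 of the 16 were called lower in TPEN/ONC. Of the 16, 11 had a Ctrl mean under 0.5 RPKM and were tested only for their level after the injury, so that nothing is read from these counts (4.58%, 3.45% and 1.21% of all genes were called in these directions). Per 1000 RPKM of markers, Csf1r was at 56.5 ± 10.03 in Ctrl, 52.1 ± 1.86 in ONC and 48.7 ± 3.53 in TPEN (SD, n = 3), with overlapping libraries. An exact permutation test of this plain ratio gave p = 0.35, and of the log2 ratio with 0.1 RPKM added p = 0.0607 (adjusted over 6 ratios, 0.0857). No difference between groups was found in the plain ratio beyond the spread between libraries. With so few libraries this does not show that Csf1r and the markers changed equally. The log2 ratio moved with the settings, as given below.

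Spi1 stood at 4.72 ± 2.32 per 1000 RPKM of markers in Ctrl, 6.88 ± 0.919 in ONC and 5.48 ± 2.55 in TPEN, again overlapping (exact permutation p = 0.446, and 0.0929 for the log2 ratio, adjusted 0.0929). Runx1 stood at 1.41 ± 1.22, 1.48 ± 0.579 and 1.46 ± 0.839, with an exact permutation p of 0.993. The log2 ratio of Runx1 with 0.1 RPKM added was lower by 1.83 in ONC (ONC minus Ctrl -1.83). The exact permutation p was 0.0143 over the 3 groups (adjusted 0.0286) and 0.1 for ONC against Ctrl alone. This difference came with the added 0.1 RPKM, which exceeds the level of Runx1 in Ctrl, and was not seen in the plain ratio. The plain ratios were added after the data had been seen.

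Among the receptors, Csf3r was set against Csf1r in the same way, a ratio also chosen after its values were seen. Per 1000 RPKM of Csf1r, Csf3r was at 287, 206 and 172 in Ctrl, 170, 173 and 191 in ONC, and 82.9, 164 and 88.4 in TPEN. In the plain ratio the TPEN libraries were all below those of the other groups (exact permutation p = 0.0214 for the plain ratio, 0.0107 for the log2 ratio, adjusted 0.0286). For TPEN against ONC alone the exact permutation p was 0.3 for the log2 ratio, where 3 against 3 libraries cannot go below 0.1. The log2 ratios of TPEN and ONC libraries overlapped, and with a pseudocount of 1 RPKM the difference of TPEN minus ONC turned from -0.51 to 0.10. Cebpa to Csf1r was at 262 ± 50.7, 257 ± 32.5 and 237 ± 8.37 per 1000 RPKM (SD, n = 3), with an exact permutation p of 0.657. Its log2 ratio was -0.35 in ONC minus Ctrl, with an exact permutation p of 0.2 for ONC against Ctrl alone. Over the 3 groups the exact permutation p was 0.0714. The test over the 3 groups passed with a pseudocount of 1 RPKM (exact permutation p = 0.00357) and with quantile normalization (0.025). It also passed without Ctrl replicate 2 (0.0214) or ONC replicate 3 (0.0429). In these settings ONC minus Ctrl was -0.87, -0.49, -0.47 and -0.24.

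**Figure D3:**
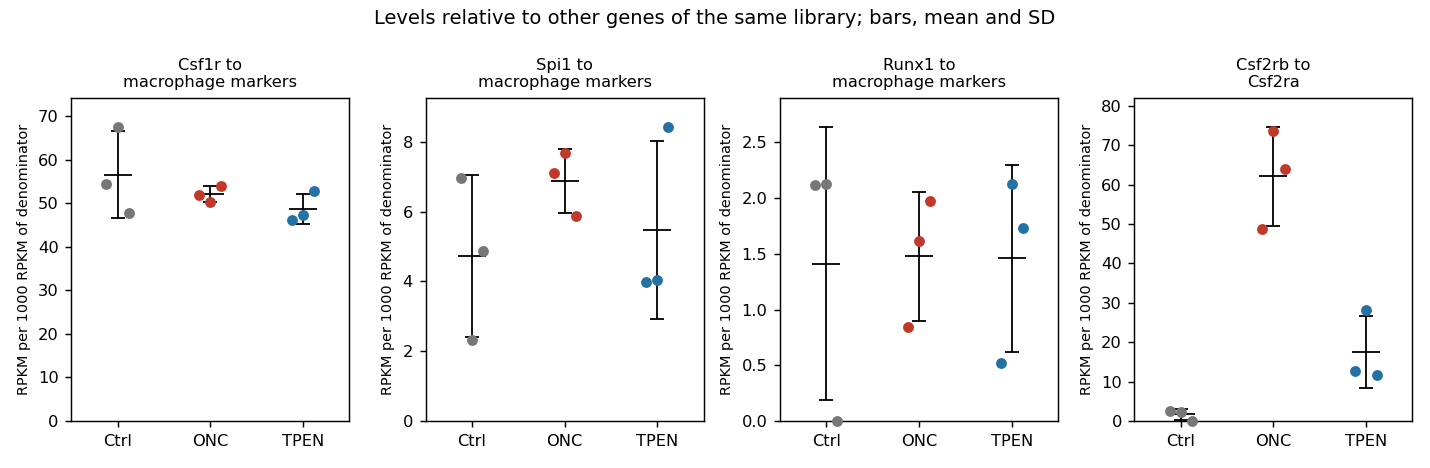
RPKM of Csf1r, Spi1 and Runx1 per 1000 RPKM of summed macrophage markers, and of Csf2rb per 1000 RPKM of Csf2ra (vertical axes, linear from 0), in the 9 libraries (points) with mean and SD of 3 libraries (bars). The groups overlap in the first 3 panels, and for Csf2rb to Csf2ra they stand apart at 1.63 ± 1.42 in Ctrl, 62.0 ± 12.5 in ONC and 17.5 ± 9.21 in TPEN.

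Other cytokines and receptors of these pathways were mostly not analysed here: of 13 listed, Csf2rb2, Flt3l and Ptprz1 were found. Flt3l, the ligand of a receptor of blood stem cells and dendritic cells, was at 54.0 ± 0.667 RPKM in Ctrl, 62.3 ± 0.665 in ONC and 58.0 ± 2.84 in TPEN (SD, n = 3), a log2 fold change of 0.21 in ONC/Ctrl (adjusted p = 0.00331) that is under the fold of 1.5. Ptprz1, a receptor phosphatase that binds Il34, was at 1.12 ± 0.0254, 0.876 ± 0.0827 and 1.29 ± 0.0840 RPKM. It was not called in any comparison, its log2 fold change of 0.51 in TPEN/ONC (adjusted p = 0.0254) being under the fold of 1.5.

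Of 24 signalling genes that act below these receptors, 21 were found and 17 had a mean of at least 0.5 RPKM, 7 of them with a Ctrl mean under that level. In ONC/Ctrl 10 of the 17 rose (4.58% of all genes did) and none fell, in TPEN/ONC 5 fell (1.21%) and none rose, and in TPEN/Ctrl 9 rose (3.45%) and none fell. The median log2 fold change of the 17 was 1.32, -0.25 and 0.75 in these comparisons. The 5 that fell were Lyn, a kinase of the Src family, Ptpn6, a phosphatase that limits receptor signals, Plcg2, a phospholipase, and the adaptors Pik3ap1 and Gab2. Pik3ap1 was at 0.202 ± 0.0802 RPKM in Ctrl, 3.37 ± 0.0812 in ONC and 1.14 ± 0.286 in TPEN (log2 fold change 3.56 in ONC/Ctrl, adjusted p = 3.60e-06, and -1.51 in TPEN/ONC, adjusted p = 0.00345). Ptpn6 was at 0.599 ± 0.107, 4.19 ± 0.572 and 1.85 ± 0.175 RPKM (2.62 and -1.13, adjusted p = 1.97e-06 and 0.00192).

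Signalling genes that many retinal cell types use behaved otherwise. Stat3, a transcription factor below the granulocyte factor receptor and many other cytokine receptors, was at 3.66 ± 0.138 RPKM in Ctrl, 14.6 ± 0.147 in ONC and 13.9 ± 0.223 in TPEN. It rose in ONC/Ctrl (log2 fold change 1.97, adjusted p = 4.94e-09) with a log2 fold change of -0.07 in TPEN/ONC (SE 0.045, adjusted p = 0.404). Its feedback inhibitor Socs3 was at 1.68 ± 0.428, 6.49 ± 0.187 and 4.39 ± 0.221 RPKM (-0.55 in TPEN/ONC, SE 0.15, adjusted p = 0.0628). Jak1, Jak2, Stat5b, Cish, Grb2, Shc1 and Cbl were not called in ONC/Ctrl.

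Of 35 other blood and myeloid transcription factors, 23 were found and 19 tested, of which 2 (Cebpb and Irf8) had a Ctrl mean under 0.5 RPKM and were tested for their level after the injury. In ONC/Ctrl 6 rose (4.58% of all genes did), in TPEN/ONC 1 fell (1.21%) and in TPEN/Ctrl 3 rose (3.45%), with none in the other direction and median log2 fold changes of 0.39, -0.15 and 0.30. The one that fell with TPEN was Cebpb, a relative of Cebpa in inflammatory macrophages, at 0.260 ± 0.124 RPKM in Ctrl, 1.35 ± 0.0889 in ONC and 0.528 ± 0.168 in TPEN (-1.24, adjusted p = 0.0190). Cebpd, the relative that acute-phase signals induce, was at 0.840 ± 0.129, 3.63 ± 0.275 and 3.01 ± 0.357 RPKM (-0.27 in TPEN/ONC, SE 0.13, adjusted p = 0.278). Irf8, the partner of PU.1 in macrophages, was at 0.140 ± 0.0548, 1.40 ± 0.0373 and 0.799 ± 0.216 RPKM. It rose in ONC/Ctrl (2.67, adjusted p = 2.39e-05), and its log2 fold change in TPEN/ONC was -0.77 (SE 0.22, adjusted p = 0.0668). The differences between Cebpa, Cebpb and Cebpd in TPEN/ONC were not tested.

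**Figure D4:**
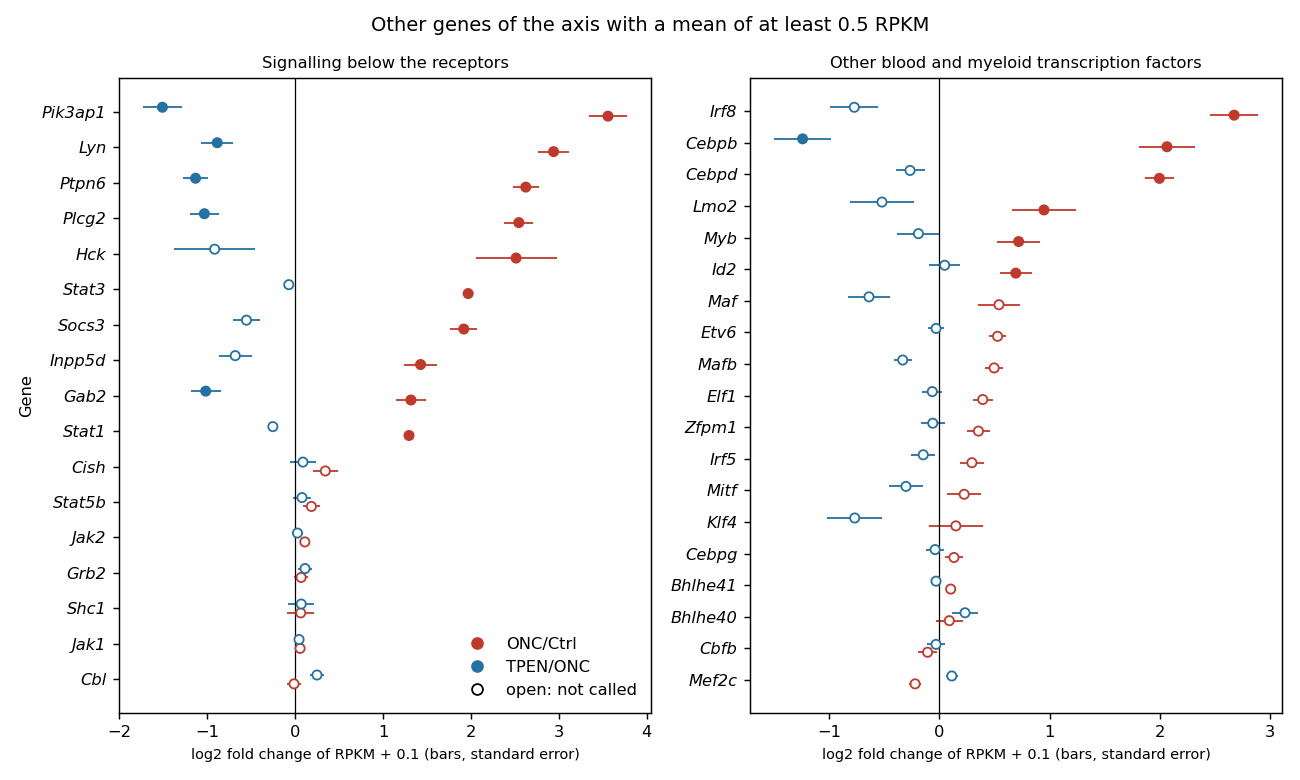
Log2 fold change of RPKM + 0.1 (horizontal axes) of the 17 signalling genes (left) and 19 other transcription factors (right) with a mean of at least 0.5 RPKM, in ONC/Ctrl and TPEN/ONC, with bars for the standard error and open points for changes not called. Filled points lie to the right for 10 and 6 genes in ONC/Ctrl and to the left for 5 and 1 in TPEN/ONC.

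The genes whose levels ran most like those of Csf1r, Csf1 and Spi1 over the 9 libraries are given as a description, since the libraries share 3 group levels. For Csf1r they were Impg2, a component of the matrix between photoreceptors (Pearson r = 0.998), Col4a1, a basement membrane collagen (0.996), and Tnnt2, a troponin of the heart (0.996). For Csf1 they were Rpl19, Nol12 and Epas1 (0.987 to 0.989). For Spi1 they were Adcy1, Klf2 and the microglial marker Tmem119 (0.983 to 0.988), of which Klf2 was at 0.291, 2.27 and 0.975 RPKM and Tmem119 at 0.0668, 1.003 and 0.473 in Ctrl, ONC and TPEN. Only 1 of these 9 genes, Tmem119, was in the list of macrophage markers. Between the 8 genes themselves, r ran from 0.68 to 0.99 over 28 pairs.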

How the data were processed

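Per the methods of the study, reads of a stranded messenger RNA kit with molecular identifiers were trimmed (Trimmomatic 0.36 in the submitters' processing notes) and aligned with STAR to GRCm38 (mm10). The counting program, its annotation, its use of strand and of the identifiers were not given in the sources used here. The authors deposited RPKM values for each gene and library, with gene positions and exon length. Columns of the authors' own comparisons (log2 fold changes and p-values) were not used.

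RPKM multiplied by length gave whole multiples of 1 step per library (within 0.05 reads), from which reads and totals were recovered. Of the read numbers from 1 to 20, 64.1% to 70.4% were even, as when both reads of a pair are counted. Intervals and floors cover counting error only.

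The main test was limma 3.58.1 in R 4.3.3, applied to log2(RPKM + 0.1) of all 9 libraries, with the variance trended on expression and 1 coefficient per group, for genes averaging 0.5 RPKM or more. P-values were adjusted by Benjamini and Hochberg over all genes tested, at 0.05 and a fold of 1.5. Values of genes below this level come from the same fit without the filter. The script was tested on simulated data. Ratios were tested with exact permutation tests (two-sided between pairs of groups). Alternatives were a pseudocount of 1 RPKM, filters of 1 RPKM and none, a fold of 2, quantile normalization, limma-voom on the recovered reads, a replicate block, and each library left out.

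The genes described, the marker and pathway lists and the tests were chosen with earlier results of these data known. The genes named are all 9 chosen ones, genes of the lists, and for Csf1r, Csf1 and Spi1 the 3 other genes with the highest correlation. Of the remaining lists, 1 of 3 dendritic cell markers and 2 of 2 endothelial markers were tested and none was called. Of the Muller glia markers only Glul was called, lower in TPEN/Ctrl (log2 fold change -0.75, adjusted p = 2.02e-07). Of 3 astrocyte markers tested 2 were higher in ONC/Ctrl, 1 was lower in TPEN/ONC and 2 were higher in TPEN/Ctrl. Of 8 RGC markers tested 2 were higher in ONC/Ctrl and 1 in TPEN/Ctrl, and no rod marker was called. Of all genes, 4.58% were higher in ONC/Ctrl, 1.21% lower in TPEN/ONC and 3.45% higher in TPEN/Ctrl. Nothing is read from these small counts. Promoters came from RefSeq (GRCm38.p6). Transcripts of Csf2rb and Csf2rb2 (GENCODE) were aligned with blastn 2.17.0.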

Additional observations from a re-analysis of the deposited data

How the results depend on the processing

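The number of the 4 tested genes called was 3 in ONC/Ctrl, 3 in TPEN/ONC and 2 in TPEN/Ctrl, and leaving out any library gave the same counts. It was 1 in each comparison with a mean of at least 1 RPKM, where fewer genes were tested. Without a filter it was 7, 4 and 5 of 8. A fold of 2 gave 1 in TPEN/ONC, and a pseudocount of 1 RPKM gave 3, 2 and 1, with Cebpa under the fold of 1.5 in TPEN/ONC and TPEN/Ctrl. Same-numbered libraries did not deviate together (r from -0.062 to 0.027 over 9 pairs of libraries, against -0.037 to 0.051 for 18 others), and a replicate block gave 3, 3 and 2.

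The log2 ratios to macrophage markers moved with several settings. For Csf1r, ONC minus Ctrl was -0.24 and became -0.96 with a pseudocount of 1 RPKM and 0.11 with the mean of log2 marker levels. It was -0.35 to -0.12 when libraries were left out. The exact permutation p over the 3 groups was 0.0143 with that pseudocount and 0.0107 without Ctrl replicate 3 (ONC minus Ctrl -0.35). TPEN minus ONC was -0.08 and became 0.055 with a pseudocount of 1 RPKM, with -0.14 to -0.043 when libraries were left out. For Spi1, ONC minus Ctrl was -0.57 and became -2.15 with a pseudocount of 1 RPKM, -0.84 with quantile normalization and 0.54 as a plain ratio, with -0.70 to -0.43 when libraries were left out. TPEN minus ONC was -0.20 and became 0.37, -0.22 and -0.33 in the same order, with -0.48 to -0.063 when libraries were left out. For Spi1 the exact permutation p over the 3 groups was 0.00714 without TPEN replicate 3. For Runx1, the plain ratio gave 0.065 and -0.017, against -1.83 and 0.31, with -1.99 to -1.61 and 0.10 to 0.56 when libraries were left out.

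Other signs that turned were Csf3r to Csf1r in TPEN minus ONC with a pseudocount of 1 RPKM (0.10), and Cebpa to Csf1r in TPEN minus ONC with the same (0.19), without ONC replicate 1 (1.4e-04) and without ONC replicate 2 (0.0079), with a range of -0.15 to 0.0079 over the libraries left out. Csf2ra in TPEN/ONC turned with quantile normalization (0.0015), without ONC replicate 1 (0.014) and without TPEN replicate 2 (0.036), with a range of -0.066 to 0.036 over the libraries left out, as did Csf3r in TPEN/Ctrl with quantile normalization (-0.021). The cause was not tested. The planned ratio of Csf1 to Il34 was not run, as Il34 was not analysed here. Reads limit Csf2rb, Csf1, Spi1 and Runx1, which had 0 to 8 reads in Ctrl libraries.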

Other observations

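Genes of the same pathways with a mean under 0.5 RPKM are given from the fit to all genes. Syk, a kinase that relays signals of myeloid receptors, was at 0.0230 ± 0.0200 RPKM in Ctrl, 0.651 ± 0.133 in ONC and 0.134 ± 0.0352 in TPEN (SD, n = 3). It rose in ONC/Ctrl (log2 fold change 2.61, SE 0.21, adjusted p = 1.71e-05) and fell in TPEN/ONC (-1.68, SE 0.21, adjusted p = 0.00136). Fli1, a transcription factor of blood and endothelial cells, was at 0.0359 ± 0.0184, 0.400 ± 0.0570 and 0.142 ± 0.0401 RPKM. It rose in ONC/Ctrl (1.88, adjusted p = 7.65e-05) and fell in TPEN/ONC (-1.06, adjusted p = 0.00880). Sall1, a factor of resident microglia, was at a mean of 0.0930, 0.438 and 0.445 RPKM. It rose in ONC/Ctrl (1.48, adjusted p = 3.47e-04), and its log2 fold change in TPEN/ONC was 0.0084 (adjusted p = 0.987). Fgr, Pik3cd and Ikzf1 also rose in ONC/Ctrl but did not pass in TPEN/ONC (-0.88, -0.38 and -0.45, adjusted p = 0.114, 0.196 and 0.294). Socs2 and Runx1t1 passed in neither of these comparisons.

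Of 8 monocyte markers, F10 and Fcgr1 were found. F10, a clotting factor that inflammatory monocytes also make, was at 0.142 ± 0.0751 RPKM in Ctrl, 1.78 ± 0.279 in ONC and 0.159 ± 0.0645 in TPEN (SD, n = 3). It rose in ONC/Ctrl (log2 fold change 2.99, adjusted p = 5.07e-05), fell in TPEN/ONC (-2.88, adjusted p = 2.98e-04) and did not pass in TPEN/Ctrl (0.11, SE 0.27, adjusted p = 0.839). Its level with TPEN overlapped with Ctrl, where those of Csf1r, Csf3r, Csf2rb and Cebpa did not. For Csf3r, however, the lowest TPEN library and the highest Ctrl library both had 18 reads. Fcgr1, an antibody receptor of monocytes and macrophages, was at a mean of 0.114, 0.869 and 0.36 RPKM.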
